A study of Mus musculus with 4 samples.

Results

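Collagen genes were followed in the spleen and liver of mice fed nucleoprotein, a product rich in nucleic acids, and then injected with bacterial lipopolysaccharide. The members were all non-control array probes whose deposited gene name begins with Col followed directly by a digit. There were 82 such probes for 41 names, of 41174 gene probes for 27670 genes. One name, Col4a3bp (4 probes), is a ceramide transfer protein that RefSeq now calls Cert1, and it was set aside, which left 40 collagen genes on 78 probes.

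Male C57BL/6J mice, 7 weeks old at the start, ate for 4 weeks either a diet with 1.2% of a nucleoprotein product (NP, 0.5% nucleic acids) or a low-nucleoprotein control diet (0.03% nucleic acids). All of these mice, controls included, then received lipopolysaccharide at 10 mg/kg, and organs were taken 6 h later. No mice without lipopolysaccharide were analysed here. RNA was pooled by diet, and how many mice went into each pool is not given in the sources used here. Spleen and liver each had 2 two-colour arrays, with the NP pool in Cy5 (red) on array 1 and in Cy3 (green) on array 2, so that each organ gave 2 NP channels and 2 control channels. The labels leave open whether pools 1 and 2 held different mice, so the arrays of an organ were taken as a technical dye swap of 1 pool per diet. The design therefore allows no test, and no p-values are printed. Each SD of a ratio was taken over the 2 arrays and covers labelling and array error and gene-specific dye effects, not variation between mice.

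Collagens are secreted proteins whose chains carry glycine at regular short intervals and wind into a triple helix after prolines and lysines have been hydroxylated. Fibrillar collagens assemble into the load-bearing fibres of connective tissue, while type IV collagen forms the sheet of basement membranes, and smaller families attach to fibrils, form beaded filaments or sit in the cell membrane. In liver, stellate cells and portal fibroblasts are known sources of fibrillar collagen, and in spleen the fibroblastic reticular cells wrap thin collagen fibres into the conduits of the white pulp.

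An unbroken glycine repeat could be read in 3 of the 78 collagen probes, shown here because their letters carry the repeat that defines the family. The other probes were not placed within their genes. Capitals mark the glycine codons (GGN), 6 or 7 in each 60-base probe. In the coordinates of mouse build mm7 (NCBI 35), as deposited, they lie at chr17:32131401-32131567 on the plus strand for Col11a2, chr2:27994034-27996457 on the plus strand for Col5a1 and chr9:20655471-20656200 on the minus strand for Col5a3, spans longer than the probe itself.
Col11a2: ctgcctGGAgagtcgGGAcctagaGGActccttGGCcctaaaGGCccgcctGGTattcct
Col5a1: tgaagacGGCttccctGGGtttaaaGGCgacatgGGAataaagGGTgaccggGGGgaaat
Col5a3: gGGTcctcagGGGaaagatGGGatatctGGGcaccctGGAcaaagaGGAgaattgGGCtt
Of these 3 probes only that of Col11a2 was well above background in all 4 channels of spleen and of liver. The values below for the 3 genes come from other probes, brighter over both organs together. In liver alone the printed Col11a2 probe was slightly the brighter, at 6.96 against 6.91.

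The 250 bases before each RefSeq start (GRCm38.p6) are printed for the 5 genes that differed at least 4-fold between spleen and liver, with motif matches on either strand in capitals. The motifs searched were the CCAAT box, spelled as named, the letters TATAAA for the core promoter element that positions the start of transcription, and the letters GGGCGG for the GC box bound by Sp1. No match overlapped another kind. The windows are chr9:108953336-108953585 (plus) for Col7a1, chr6:4505368-4505617 (plus) for Col1a2, chr9:20815068-20815317 (minus) for Col5a3, chr10:61979109-61979358 (minus) for Col13a1, and chr10:77166531-77166780 and chr10:77113706-77113955 (both minus) for the 2 starts of Col18a1.
Col7a1: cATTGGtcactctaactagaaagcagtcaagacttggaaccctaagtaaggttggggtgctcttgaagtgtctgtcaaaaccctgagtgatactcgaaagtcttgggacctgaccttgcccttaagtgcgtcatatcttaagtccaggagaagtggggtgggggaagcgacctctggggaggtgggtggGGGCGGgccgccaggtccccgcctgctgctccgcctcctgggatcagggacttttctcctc
Col1a2: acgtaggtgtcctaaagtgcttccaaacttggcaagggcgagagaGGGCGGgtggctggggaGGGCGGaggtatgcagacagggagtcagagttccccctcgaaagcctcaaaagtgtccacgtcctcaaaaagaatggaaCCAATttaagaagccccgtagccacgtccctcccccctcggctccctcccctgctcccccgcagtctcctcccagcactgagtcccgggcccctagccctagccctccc
Col5a3: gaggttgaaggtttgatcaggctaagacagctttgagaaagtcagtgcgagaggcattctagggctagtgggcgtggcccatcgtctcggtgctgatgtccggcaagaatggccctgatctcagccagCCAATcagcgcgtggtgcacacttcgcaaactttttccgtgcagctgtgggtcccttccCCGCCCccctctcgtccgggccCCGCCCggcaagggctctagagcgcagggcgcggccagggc
Col13a1: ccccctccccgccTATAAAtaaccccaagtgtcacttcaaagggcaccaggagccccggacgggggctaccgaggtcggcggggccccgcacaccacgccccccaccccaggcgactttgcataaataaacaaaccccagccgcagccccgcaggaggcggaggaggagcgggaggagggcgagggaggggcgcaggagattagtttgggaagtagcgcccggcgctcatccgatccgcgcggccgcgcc
Col18a1 first start: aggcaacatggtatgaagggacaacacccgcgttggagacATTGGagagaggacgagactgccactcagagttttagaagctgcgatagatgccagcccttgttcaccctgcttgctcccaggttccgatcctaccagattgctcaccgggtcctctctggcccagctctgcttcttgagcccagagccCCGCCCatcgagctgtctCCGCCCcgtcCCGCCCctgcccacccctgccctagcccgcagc
Col18a1 second start: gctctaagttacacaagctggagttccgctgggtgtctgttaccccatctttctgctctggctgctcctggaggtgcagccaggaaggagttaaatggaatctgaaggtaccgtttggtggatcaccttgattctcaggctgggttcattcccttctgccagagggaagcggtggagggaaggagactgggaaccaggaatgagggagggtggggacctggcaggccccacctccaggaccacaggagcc
The TATA box letters were found upstream of Col13a1, at the end of its window that lies farthest from the start. The windows of Col7a1, Col1a2, Col5a3 and the first start of Col18a1 each held a CCAAT box and a GC box, and the second start of Col18a1 held none of the 3 motifs. Over all 32851 promoter windows of this length, 12.4% held the TATA box, 33.8% the CCAAT box and 32.7% the GC box. Of 35 collagen windows, from the 32 of 40 genes with an entry, 5 held the TATA box, 12 the CCAAT box and 19 the GC box. A match describes letters only and does not show that a factor binds there. The longer RefSeq promoter entries of Col4a1 and Col4a2, which also run past the start and lie on opposite strands of chromosome 8, shared 78 bases.

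A channel level is the log2 of background-corrected intensity after normalization. A gene was represented by its brightest probe, the one with the highest mean level over all channels of both organs. The organ differences below use these same levels, so a probe high in 1 organ could be favoured. A gene was called measurable in an organ when at least 1 diet had its representing probe well above background in both channels of that diet there. Levels of different probes are not compared, because probes differ in how well they bind. An offset of 50 was added to each intensity, which places a probe without signal near 6 and shrinks differences of dim probes. The share of gene spots well above background ranged from 55.2% to 72.8% over the channels of the 4 arrays. No spot was saturated.

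Of the 40 collagen genes 32 were measurable in spleen and 29 in liver. The 29 were measurable in both organs. In spleen 29 genes were well above background in all 4 channels and 4 in none, and in liver 26 in all 4 and 7 in none. Fibrillar collagens had 10 of 11 members measurable in both organs, all but Col24a1. Basement membrane collagens had 7 of 9, all but Col4a3, a chain of the kidney filter, and Col4a5. Among the 20 other collagens, 15 were measurable in spleen and 12 in liver. Measurable in spleen alone were Col8a2, part of a hexagonal network known from the cornea, and the transmembrane collagens Col17a1, of the hemidesmosome, and Col23a1. Measurable in neither were Col9a1, Col12a1, Col19a1, Col10a1 and Col28a1 besides the 3 named above.

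**Figure D1:**
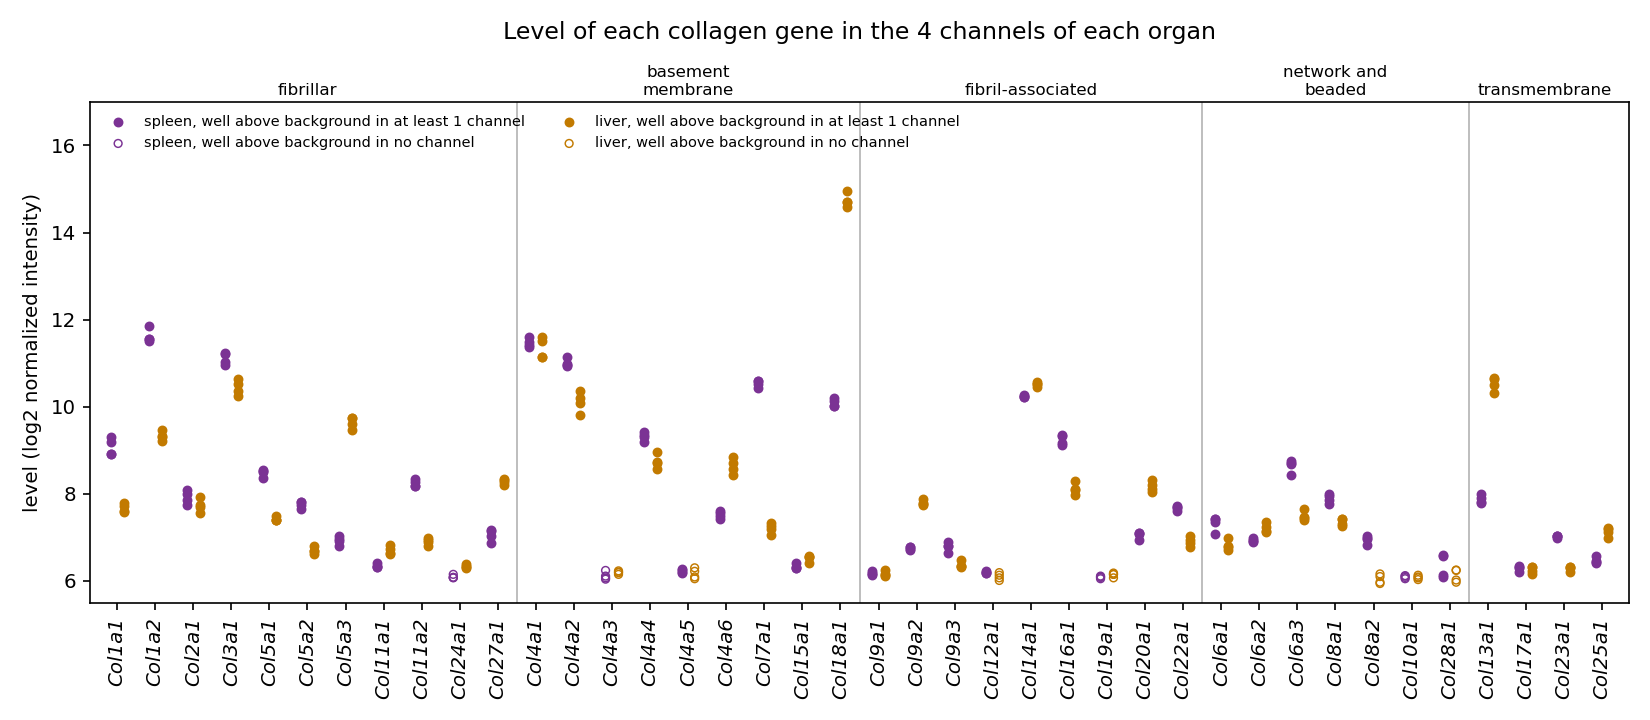
Level (log2 normalized intensity, y axis) of the 40 collagen genes by class (x axis), with 4 channels of spleen to the left of 4 channels of liver for each gene. Filled points belong to genes well above background in at least 1 channel of that organ, and open points to genes above it in none. The spleen points of Col18a1 lie between 10.01 and 10.21 and its liver points between 14.58 and 14.95, with no overlap.

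No collagen gene was called between the diets in either organ. A gene was called when its log2 ratio of NP over control passed 1.5-fold (0.58) in the same direction on both arrays of an organ. In spleen 0 of 32 measurable collagens were called higher and 0 lower, against 0.436% of all 18139 measurable genes called either way. In liver 0 of 29 were called in either direction, against 0.329% of 16414 genes. At these background shares less than 1 call was to be had among the collagens of an organ, so 0 is near the background. No collagen passed the bound in opposite directions on the 2 arrays either. The median ratio over measurable collagens was -0.03 in spleen (-0.03 and -0.04 on the 2 arrays) and 0.00 in liver (-0.01 and 0.03), against 0.00 and 0.01 for all measurable genes. Mean ratios lay between -0.33 and 0.13 in spleen and between -0.15 and 0.11 in liver.

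**Figure D2:**
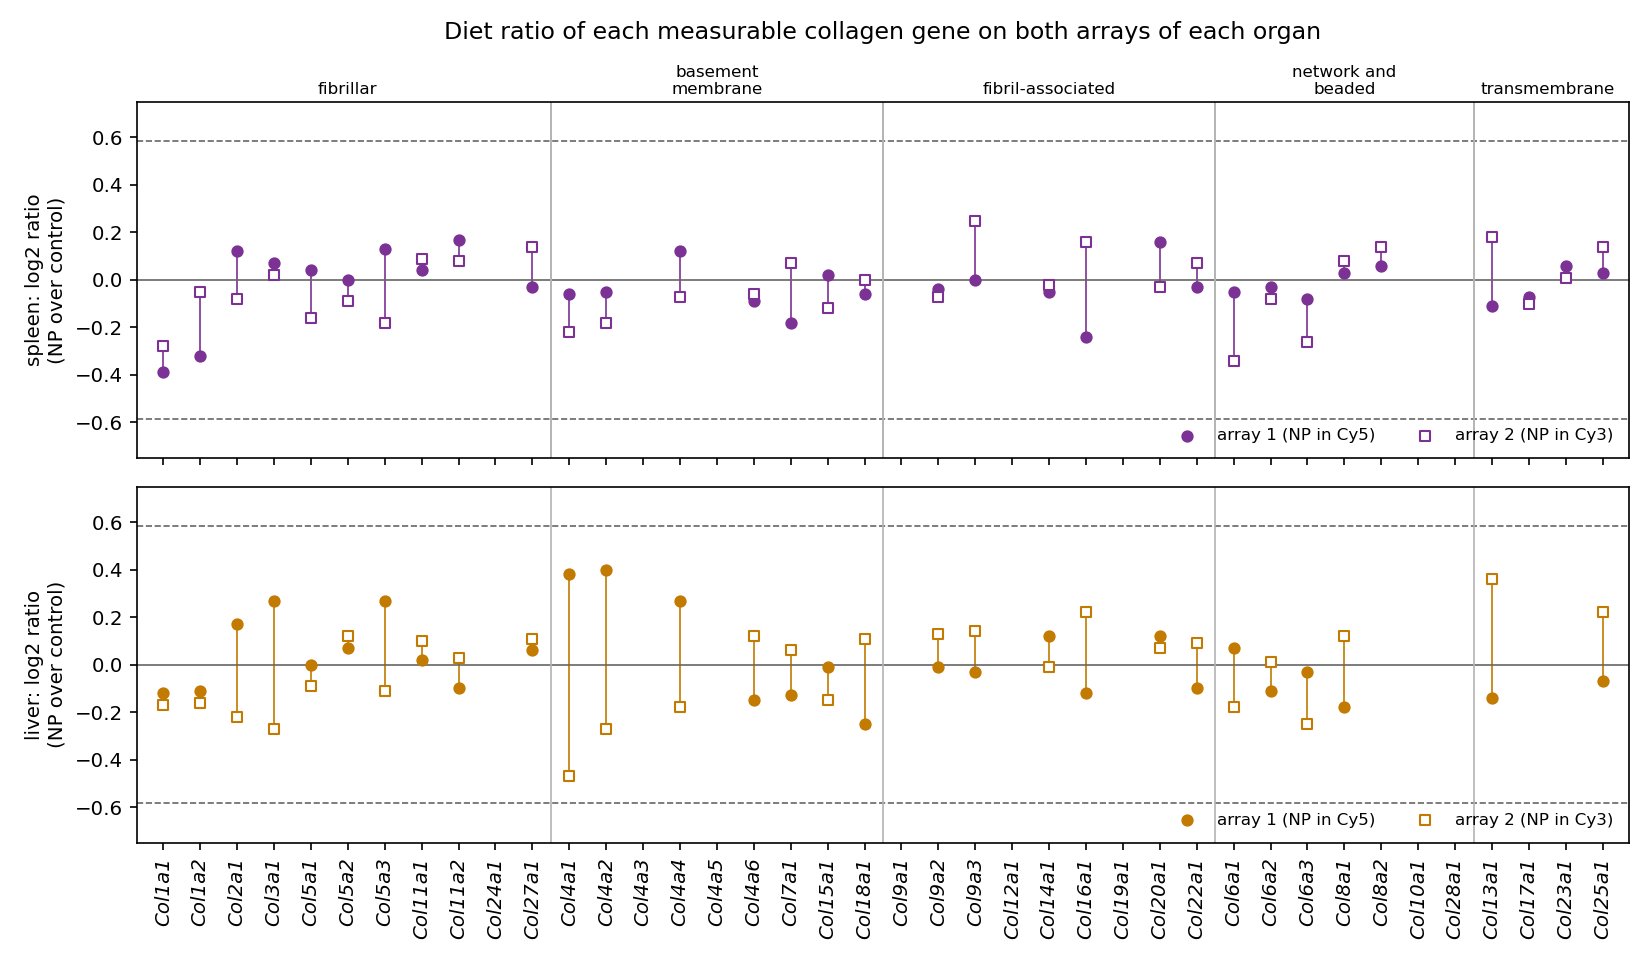
Log2 ratio of NP over control (y axis) for each measurable collagen gene (x axis, by class) in spleen (upper panel) and liver (lower panel). Circles are array 1 and squares array 2, the line joins both, and dashed lines mark 1.5-fold. No gene is past a dashed line on either array, and the widest gap between arrays is that of Col4a1 in liver, at 0.38 and -0.47.

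Among the fibrillar collagens, the medians were 0.00 in spleen and -0.01 in liver over 10 genes each. Type I collagen, the main fibre of scar, tendon and bone, is built from the products of Col1a1 and Col1a2. In spleen Col1a1 (probe on chromosome 11, 95060800 to 95060859) had levels of 8.92 and 8.92 in the NP channels of arrays 1 and 2, against 9.31 and 9.20 in the control channels. Its ratios were -0.39 and -0.28, with a mean of -0.33 ± 0.08 (SD of 2 arrays), or 1.26-fold lower in the NP pool, the lowest mean ratio of any measurable collagen in spleen. The NP channels did not overlap the control channels. In liver its levels were 7.59 and 7.61 in NP and 7.71 and 7.79 in control, with ratios of -0.12 and -0.17.

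Col1a2 (chromosome 6, 4493505 to 4493564) had levels of 11.55 and 11.50 in NP spleen and 11.86 and 11.55 in control spleen. The lower control channel met the higher NP channel at this rounding, and the ratios were -0.32 and -0.05, with a mean of -0.18 ± 0.19. In liver its levels were 9.22 and 9.31 in NP and 9.33 and 9.47 in control, with ratios of -0.11 and -0.16 and a mean of -0.14 ± 0.03. Both type I genes thus had ratios below 0 on all 4 arrays, none of them past the 1.5-fold bound. These signs held with the deposited log ratio (Col1a1 at -0.44 and -0.28 in spleen and -0.42 and -0.21 in liver). With median centring and no loess they split by dye, Col1a1 standing at 0.27 and -0.92 in spleen and 0.48 and -0.65 in liver, and Col1a2 at 0.57 and -0.90 in spleen and 1.15 and -1.03 in liver.

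**Figure D3:**
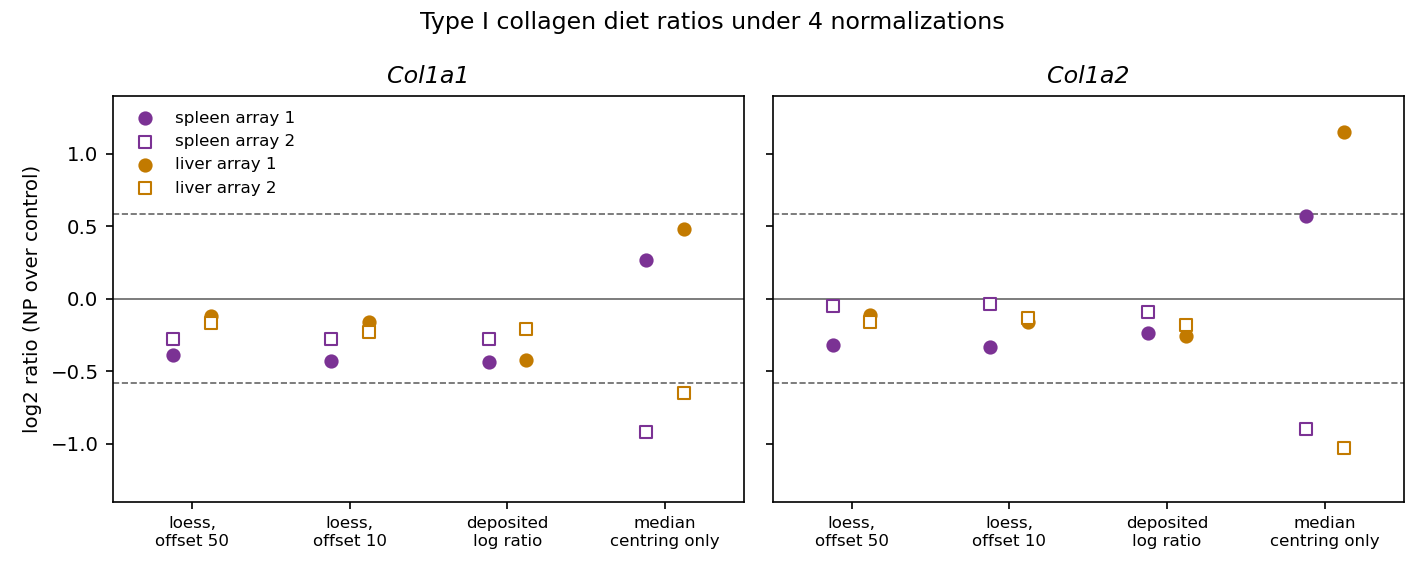
Log2 ratio of NP over control (y axis) of Col1a1 (left panel) and Col1a2 (right panel) under 4 normalizations (x axis), for the 2 spleen arrays and the 2 liver arrays. Circles are array 1, squares array 2 and dashed lines 1.5-fold. All points lie below 0 under the 3 leftmost settings, while median centring alone puts array 1 above 0 and array 2 below it in both organs.

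Col3a1, the type III collagen of the thin reticular fibres that run through spleen and liver, did not follow type I. Its levels (chromosome 1, 45585395 to 45585454) were 11.03 and 11.23 in NP spleen and 10.95 and 11.21 in control spleen, with ratios of 0.07 and 0.02. In liver its levels were 10.63 and 10.24 in NP and 10.36 and 10.51 in control, so that the arrays gave opposite ratios of 0.27 and -0.27. Type V collagen joins type I fibrils and limits their width. Col5a1 had ratios of 0.04 and -0.16 in spleen and 0.00 and -0.09 in liver, Col5a2 0.00 and -0.09 in spleen and 0.07 and 0.12 in liver, and Col5a3 0.13 and -0.18 in spleen and 0.27 and -0.11 in liver. The remaining fibrillar genes are best known from cartilage. Col11a1, of the cartilage fibril core, was above 0 on all 4 arrays, at 0.04 and 0.09 in spleen and 0.02 and 0.10 in liver, all close to 0 and from a dim probe. Its partner Col11a2 stood at 0.17 and 0.08 in spleen and -0.10 and 0.03 in liver. Col2a1, the main cartilage collagen, had 0.12 and -0.08 in spleen and 0.17 and -0.22 in liver, and Col27a1 -0.03 and 0.14 in spleen and 0.06 and 0.11 in liver.

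Basement membrane collagens had medians of -0.05 in spleen and -0.04 in liver over 7 genes each. Col4a1 and Col4a2 encode the chains of the common type IV network. In spleen Col4a1 (chromosome 8, 11167020 to 11167079) had levels of 11.42 and 11.38 in NP and 11.49 and 11.60 in control, with ratios of -0.06 and -0.22. In liver its levels were 11.52 and 11.14 in NP and 11.15 and 11.61 in control, with ratios of 0.38 and -0.47, a mean of -0.05 ± 0.60. On both liver arrays the red channel was the brighter one, whichever diet it held. Col4a2 (chromosome 8, 11416851 to 11416910) had 10.94 and 10.96 in NP spleen and 10.99 and 11.14 in control spleen, and ratios of -0.05 and -0.18. In liver it had 10.21 and 10.08 in NP and 9.81 and 10.35 in control, with ratios of 0.40 and -0.27, again red over green on both arrays. In all, 6 of 32 collagens (18.8%) in spleen and 9 of 29 (31.0%) in liver were brighter in red on both arrays, against 34.3% and 37.9% of all measurable genes.

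Col18a1 encodes the type XVIII collagen whose end is cut off as endostatin, and hepatocytes are a known source of it. Its ratios were -0.06 and 0.00 in spleen and -0.25 and 0.11 in liver. Col7a1, of the anchoring fibrils below the epidermis, had -0.18 and 0.07 in spleen and -0.13 and 0.06 in liver. Col15a1, a relative of Col18a1 in vessel and muscle basement membranes, had 0.02 and -0.12 in spleen and -0.01 and -0.15 in liver. The chain genes Col4a4, with 0.12 and -0.07 in spleen and 0.27 and -0.18 in liver, and Col4a6, with -0.09 and -0.06 in spleen and -0.15 and 0.12 in liver, had no ratio past the bound.

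The other collagens had medians of 0.02 in spleen (15 genes) and 0.05 in liver (12 genes). Type VI collagen forms beaded filaments around cells. Col6a3 (chromosome 1, 90671098 to 90671157) had 8.68 and 8.44 in NP spleen and 8.76 and 8.71 in control spleen, and 7.44 and 7.39 in NP liver and 7.47 and 7.64 in control liver. Its ratios were below 0 on all 4 arrays, at -0.08 and -0.26 in spleen and -0.03 and -0.25 in liver. Col6a1 had -0.05 and -0.34 in spleen and 0.07 and -0.18 in liver, and Col6a2 -0.03 and -0.08 in spleen and -0.11 and 0.01 in liver.

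Of the fibril-associated collagens, which decorate fibril surfaces, Col14a1 (chromosome 15, 55583816 to 55583875) was measured well above background in all channels of both organs, with levels of 10.23 and 10.22 in NP spleen and 10.27 and 10.24 in control spleen, and 10.57 and 10.51 in NP liver and 10.45 and 10.52 in control liver, with ratios between -0.05 and 0.12 on the 4 arrays. Col16a1 had -0.24 and 0.16 in spleen and -0.12 and 0.22 in liver. Col9a2 and Col9a3, of cartilage type IX collagen, had -0.04 and -0.07, and 0.00 and 0.25, in spleen, and -0.01 and 0.13, and -0.03 and 0.14, in liver. Col20a1 had 0.16 and -0.03 in spleen and 0.12 and 0.07 in liver. Col22a1, known from muscle and tendon junctions, had -0.03 and 0.07 in spleen and -0.10 and 0.09 in liver. Of the network and transmembrane members, Col8a1 of vessel walls had 0.03 and 0.08 in spleen and -0.18 and 0.12 in liver. Col13a1, a transmembrane collagen of cell junctions, had -0.11 and 0.18 in spleen and -0.14 and 0.36 in liver, and Col25a1, first known from amyloid plaques, 0.03 and 0.14 in spleen and -0.07 and 0.22 in liver. Col8a2, Col17a1 and Col23a1, measured in spleen, lay between -0.10 and 0.14.

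Below the bound, signs alone were counted. In spleen 12 of 32 collagens (37.5%) had ratios below 0 on both arrays, against 19.8% of all measurable genes, and 7 (21.9%) had ratios above 0 on both, against 20.4%. The 12 were Col1a1, Col1a2, Col5a2, Col4a1, Col4a2, Col4a6, Col9a2, Col14a1, Col6a1, Col6a2, Col6a3 and Col17a1, which left the fibrillar class with 3 below and 3 above. In liver 4 of 29 (13.8%) were below 0 on both arrays, against 13.6%, and 4 (13.8%) above, against 20.5%. Over all 4 arrays, 3 of the 29 collagens measurable in both organs were below 0 throughout (Col1a1, Col1a2 and Col6a3), against 3.36% of the 15316 genes measurable in both, and 1 was above 0 throughout (Col11a1), against 5.33%.

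Genes that make, cross-link, bind or remove collagen were, with 1 exception, not called between diets either. Of all measurable genes 0.436% were called in spleen and 0.329% in liver. A count of 0 in lists this short is therefore near the background. In spleen and in liver, 0 of 18 measurable genes for chain hydroxylation and folding were called, with medians of -0.05 and -0.01. Serpinh1, the collagen chaperone of the endoplasmic reticulum, had -0.20 and 0.05 in spleen and -0.52 and 0.02 in liver. Of genes for propeptide cleavage and cross-linking, 0 of 9 were called in spleen and 0 of 8 in liver, of collagen breakdown and its inhibitors 0 of 14 and 0 of 11, of collagen receptors 0 of 7 and 0 of 6, and of fibrogenic signals 0 of 15 and 0 of 13. The medians of these 4 lists lay between -0.03 and 0.06. Among matrix partners, 1 of 21 was called in spleen and 0 of 21 in liver. The 1 was Vtn, vitronectin, a plasma and matrix protein made by hepatocytes, at 1.11 and 1.13 in spleen, while its liver ratios of 0.59 and -0.59 passed the bound in opposite directions.

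Markers of other cells moved with diet in the same pools, where 0.436% of all measurable genes were called in spleen and 0.329% in liver. Of 14 hepatocyte markers measurable in spleen, 7 were higher in the NP pool, with a list median of 0.77, and their summed level was 12.61 and 12.51 in NP spleen against 11.06 and 10.94 in control spleen. Pancreatic acinar markers were lower in the NP pool for 17 of 25 in spleen (median -1.03) and 25 of 25 in liver (median -3.68). Their summed level was 13.86 and 13.73 in NP spleen against 14.97 and 14.92 in control spleen, and 13.02 and 13.01 in NP liver against 17.01 and 17.07 in control liver. Among markers of cells that make collagen, 0 of 13 stellate, 0 of 9 reticular, 0 of 9 smooth muscle and 0 of 6 mesothelial markers were called in spleen, with medians of -0.13, -0.09, -0.05 and -0.02. In liver 0 of 13, 0 of 6, 0 of 8 and 0 of 3 were called, with medians of 0.03, -0.02, 0.02 and -0.07. Counts of 0 in lists this short are near the shares of all genes. The summed level of the stellate list was 15.10 and 15.23 in NP spleen against 15.25 and 15.31 in control spleen. That of the reticular list was 15.03 and 14.95 against 14.93 and 15.17. The stellate sum in spleen came mostly from Vim (mean level 13.74), Acta2 (13.45) and Tagln (13.16). Acta2 and Tagln are also on the smooth muscle list. Lrat, Reln and Gfap had spleen means of 6.49, 6.70 and 6.25, so this sum does not measure stellate cells in spleen. In liver 1 stellate and 4 reticular markers were well above background in no channel, and in spleen 0 of either. The part of any of these cells in the type I collagen ratios was not tested. In pooled organs, fewer cells of a type and less RNA per cell cannot be told apart.

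The organs differed far more than the diets. The question here was which collagens were brighter in spleen and which in liver, 6 h after lipopolysaccharide in both. A gene was called when the mean levels of the organs differed at least 2-fold (1 log2 unit) with all 4 channels of one organ apart from all 4 of the other. Each organ had its own arrays, so array and organ cannot be told apart. Of 32 collagens measurable in either organ, 8 (25.0%) were brighter in spleen, against 19.6% of all 19237 such genes, and 7 (21.9%) brighter in liver, against 14.8%. The 17 others were not called. These counts moved with the processing, to 13 in spleen and 3 in liver without scaling between arrays. They were 13 in spleen and 10 in liver with the deposited processed signals. With the mean of all probes of a gene they were 3 in spleen and 5 in liver. The median difference, spleen minus liver, was 0.46 over the collagens and 0.09 over all genes. Fibrillar genes leaned to spleen with 5 brighter there and 2 in liver (median 0.87), basement membrane genes had 1 and 2 (median 0.12), and the others 2 and 3 (median 0.42).

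**Figure D4:**
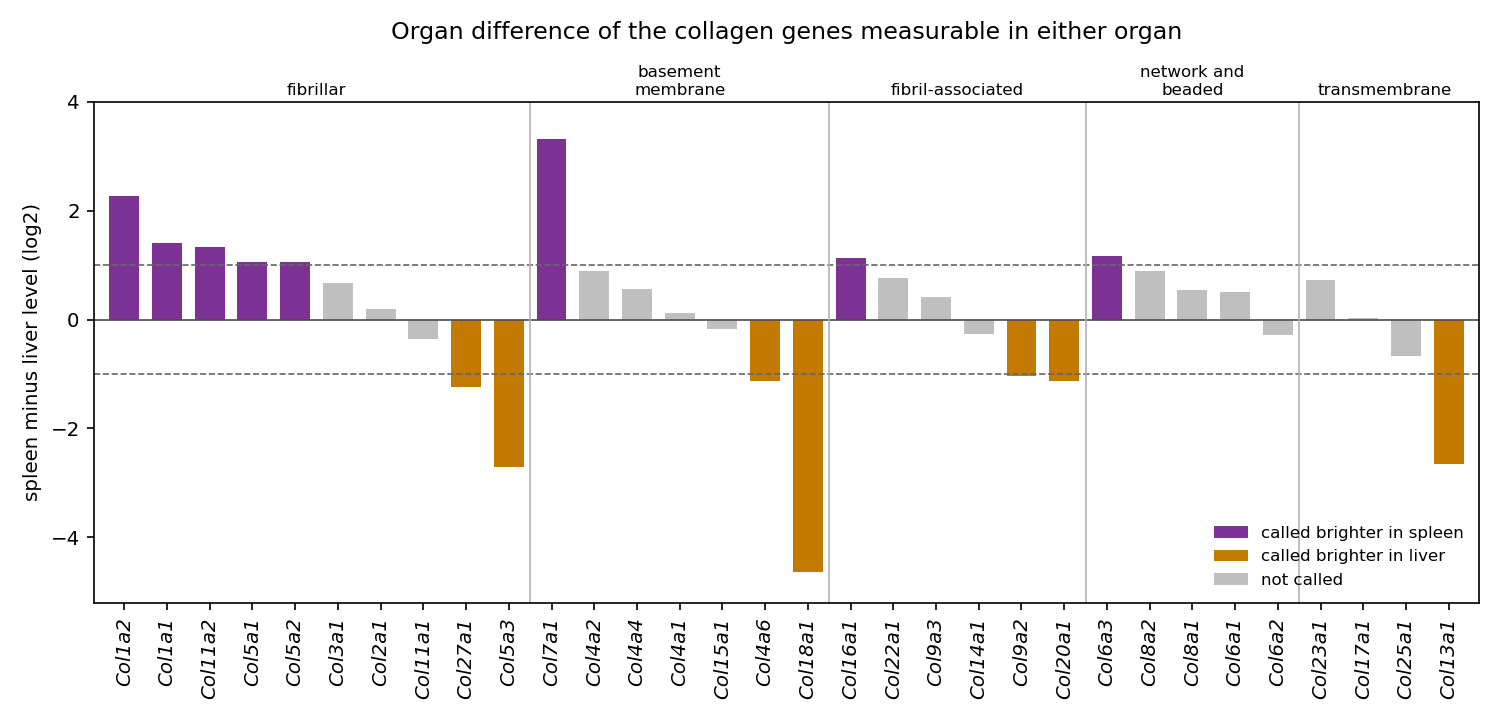
Difference in mean level, spleen minus liver (log2, y axis), of the 32 collagen genes measurable in either organ (x axis, sorted within each class). Bars are means over 4 channels per organ, coloured by call, and dashed lines mark 2-fold. Col7a1 at 3.32 and Col18a1 at -4.64, both of the basement membrane class, are the extremes.

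Col7a1 stood out on the spleen side. Its levels (chromosome 9, 108695073 to 108695132) were 10.42 and 10.58 in NP and 10.59 and 10.51 in control spleen, against 7.06 and 7.32 in NP and 7.20 and 7.26 in control liver, a difference of 3.32 or 9.97-fold. It had 1 probe. Type I followed, with Col1a2 brighter in spleen by 2.28 (4.86-fold) and Col1a1 by 1.41 (2.66-fold) at the levels given above. No channel of one organ overlapped the other. Dimmer probes gave 0.30 and -0.25 for Col1a1 and 0.05 for Col1a2. Col11a2 had 8.35 and 8.26 in NP and 8.18 and 8.18 in control spleen, against 6.80 and 6.98 in NP and 6.90 and 6.95 in control liver, a difference of 1.34. Its glycine-repeat probe printed above gave the opposite sign, -0.43, so that the direction of Col11a2 depended on the probe.

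Smaller spleen-side differences were 1.16 for Col6a3, 1.13 for Col16a1, 1.06 for Col5a1 and 1.06 for Col5a2. Col16a1, a fibril-associated collagen, had 9.13 and 9.33 in NP and 9.36 and 9.17 in control spleen, against 7.98 and 8.30 in NP and 8.11 and 8.08 in control liver. Without array 1 of each organ, Col5a1 fell to 0.99 and Col5a2 to 0.95, under the bound. Col8a2 was well above background in all 4 spleen channels and in none of liver, at least 1.78-fold brighter in spleen. That bound sets its spleen mean against the higher of its own liver level and the dimmest level among probes above background.

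Liver exceeded spleen by the widest margin at Col18a1. Its levels (chromosome 10, 76707663 to 76707722) were 10.14 and 10.01 in NP and 10.21 and 10.01 in control spleen, against 14.70 and 14.70 in NP and 14.95 and 14.58 in control liver, 25.0-fold brighter in liver (-4.64). A second probe nearby gave -4.98. The arrays did not assign the signal to either of the 2 starts shown above. Col5a3, a chain of type V found in some tissues only, had 7.04 and 6.79 in NP and 6.91 and 6.97 in control spleen, against 9.74 and 9.61 in NP and 9.46 and 9.73 in control liver, or 6.53-fold brighter in liver (-2.71). This was opposite to the spleen-side Col5a1 and Col5a2. Col13a1 had 7.79 and 8.00 in NP and 7.90 and 7.82 in control spleen, against 10.50 and 10.67 in NP and 10.64 and 10.31 in control liver, 6.29-fold brighter in liver (-2.65), and its second probe gave -1.12.

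The 4 remaining liver-side genes were closer to the bound. Col27a1, a minor fibrillar collagen of cartilage, had 7.14 and 7.02 in NP and 7.17 and 6.88 in control spleen, against 8.34 and 8.32 in NP and 8.28 and 8.21 in control liver (-1.24). Col4a6 had 7.41 and 7.55 in NP and 7.50 and 7.61 in control spleen, against 8.70 and 8.56 in NP and 8.85 and 8.44 in control liver (-1.12, and -0.92 without array 1 of each organ). Dimmer probes gave 0.05 and 0.01 for Col4a6, and -0.68 and 0.02 for Col27a1. Col20a1 had 7.10 and 7.07 in NP and 6.94 and 7.10 in control spleen, against 8.32 and 8.12 in NP and 8.20 and 8.05 in control liver (-1.12). Col9a2 had 6.73 and 6.72 in NP and 6.77 and 6.78 in control spleen, against 7.77 and 7.87 in NP and 7.78 and 7.74 in control liver (-1.04). None of the 4 overlapped between organs. Without scaling between arrays, which moved the median of all genes to 0.44, these 4 stood at -0.64, -0.40, -0.53 and -0.59 and were no longer called, or at -1.08, -0.84, -0.97 and -1.04 relative to that median. The 8 spleen-side genes and the other 3 liver-side genes were called under all 4 scalings tried.

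Collagens that were not called included the common type IV genes and the type III gene. Col4a2 was brighter in spleen by 0.89, Col3a1 by 0.67 and Col4a4 by 0.57, and Col4a1 differed by 0.12, with a second Col4a1 probe at -0.91. Col14a1 was at -0.27.

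Among all genes measurable in either organ, 19.6% were brighter in spleen and 14.8% in liver, so the background itself leans to spleen. Of 6 lists of genes that act on or with collagen, chain hydroxylation and folding had more members brighter in liver. The other lists had more brighter in spleen, matrix partners only narrowly. Of chain hydroxylation and folding genes, 2 of 18 were brighter in spleen and 5 in liver (median -0.70), with Serpinh1 at 2.19 and the prolyl hydroxylase subunit P4hb at -1.89. Of breakdown genes and their inhibitors, 6 of 15 were brighter in spleen and 0 in liver (median 0.70), among them the stromelysin Mmp3 at 4.47, the collagenase Mmp13 at 2.25 and the inhibitor Timp2 at 2.70. Fibrogenic signals had 9 of 15 brighter in spleen and 0 in liver (median 1.26), with Pdgfrb, a receptor of stromal cells, at 3.04. Propeptide cleavage and cross-linking genes had 3 of 9 in spleen and 1 in liver, with the cross-linking enzyme Lox at 1.76 and Bmp1, which trims procollagen, at -2.35. Collagen receptors had 4 of 7 in spleen and 0 in liver, with the leukocyte receptor Lair1 at 2.10. Matrix partners had 5 of 21 in spleen and 4 in liver, near the shares of all genes, with Sparc at 2.25 and fibronectin, Fn1, at -4.95.

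Cell markers moved with the organs too, beside 19.6% of all genes brighter in spleen and 14.8% in liver. Smooth muscle markers were brighter in spleen for 7 of 9 (median 1.76), with a summed level of 14.61 and 14.71 in NP and 14.87 and 14.63 in control spleen, against 12.78 and 13.00 in NP and 12.86 and 12.92 in control liver. Reticular cell markers were brighter in spleen for 7 of 9 (median 1.74), while Ltbr of that list was called brighter in liver (-1.30). B cell markers were brighter in spleen for 9 of 9 (median 4.40). Hepatocyte markers were brighter in liver for 15 of 15 (median -7.37). Stellate cell markers had 5 of 14 brighter in spleen and 5 in liver, and endothelial markers 3 of 12 each way. Mesothelial markers had 2 of 6 in spleen and 1 in liver, and adipocyte markers 0 of 10 in spleen and 5 in liver. The 5 were Cidec (-4.08), Fabp4 (-1.66), Car3 (-7.41), Pck1 (-8.19) and Pparg (-1.19). Adipoq (0.51), Cfd (0.93), Plin1 (-0.01), Retn (-0.02) and Lpl (-0.48) were not called. The part of these cells in the collagen differences was not tested.

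Which probe was read mattered for the collagen genes. The same counts were not made for other genes, so they do not show a trait particular to collagens. Of the 78 probes, 39 were well above background in all 4 spleen channels and 26 in none, and in liver 34 and 28. Among the 28 genes with several probes, 12 in spleen and 11 in liver had 1 probe above background in all 4 channels and another in none. In both organs 18 of the 28 probes nearest the 3′ end were above background in all 4 channels. Of the 38 probes further upstream, 14 were above it in all channels of spleen and 12 in liver. For Col1a2 the upstream probe was above background in no channel of either organ, while the end probe was above it in all.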

How the data were processed

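The deposited scanner files hold, per the file headers, the mean and local background intensity of each spot in both channels, processed intensities, and the log10 ratio of red over green. The submitters' processing notes name Agilent Feature Extraction 9.5.3.1. From the intensities, background was corrected with normexp (offset 50), ratios were normalized by loess with control spots at weight 0, and channels were scaled between arrays with Aquantile (limma 3.58.1, R 4.3.3). Outlier spots were left out (189 to 354 per array), and spots of a probe were averaged. The recovery of known changes, added to the NP channel of some probes in the deposited intensities, was checked, and its outcome is not given here. Tables were summarised with Python 3.11.15 and pandas 2.3.3. Names of 22944 probes were matched by accession, 6664 by symbol and 3108 by synonym to RefSeq, and 8458 kept the deposited name. Promoter windows are RefSeq's.

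The members, the gene lists and the call rules were chosen with earlier results of these data known. Named with values are the collagens measurable in an organ; channel levels are given for the 6 with the highest levels of each organ and the 6 with the largest organ difference each way, and of the lists of genes that act with collagen the member called by diet is named, with further examples chosen after their values were seen. Called members of the cell marker lists are given as counts. Precision was limited by the 4 arrays, all on 1 slide. The 2 arrays of an organ count as 1 replicate. Alternatives were other offsets, centring, scalings, probe summaries, bounds, the deposited log ratio and single arrays. A chow is named in the housing notes and a purified diet in the design, which was taken as what the mice ate.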

Additional observations from a re-analysis of the deposited data

Results flagged for a closer look

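Col5a2, a chain of the type V collagen that joins fibrils, was picked out because its diet ratios had opposite signs in the 2 organs on every array. They were just below 0 in spleen (0.00 and -0.09) and above 0 in liver (0.07 and 0.12), a difference, spleen minus liver, of -0.14. This difference was not tested. All 4 ratios were far from the 1.5-fold bound, its liver probe was well above background in 3 of 4 channels, and 6.57% of the 15316 genes measurable in both organs showed opposite signs in the same way, against 1 of 29 collagens.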

How the results depend on the processing

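The counts of collagens called by diet were 0 in both organs under every alternative run, including bounds of 1.3-fold and 2-fold and each array alone. The median diet ratio in spleen (-0.03) was -0.02 with median centring, with the deposited log ratio and with the mean of all probes, and -0.04 to -0.03 without replicate 1 or without replicate 2. That in liver (0.00) was 0.06 with median centring, which moved the median of all genes to 0.17, and -0.01 to 0.03 without replicate 1 or without replicate 2. The count brighter in spleen (8) was 13 without scaling between arrays, 13 with deposited processed signals, 2 at 4-fold and 3 with the mean of all probes, which averages in probes at background; without replicate 1 or without replicate 2 it was 6 to 8. With an offset of 10 the spleen count was 11. The count brighter in liver (7) was 3 without scaling, 10 with deposited processed signals, 3 at 4-fold and 5 with the mean of all probes. It was 8 with an offset of 10, and 6 to 7 without replicate 1 or without replicate 2. Otherwise the causes were not tested. Under these alternatives no called organ difference changed sign. Probes with the opposite sign were those of Col11a2 (-0.43), Col1a1 (-0.25), Col5a1 (-0.04), Col6a3 (-0.01 and -0.05), Col16a1 (-0.07), Col27a1 (0.02) and Col4a6 (0.05 and 0.01). Of these only that of Col11a2 was well above background in all channels of both organs. Further probes of Col1a1 (0.30), Col1a2 (0.05), Col5a3 (-0.16), Col27a1 (-0.68), Col13a1 (-1.12) and Col18a1 (-4.98) kept the sign. Of the values of single named genes, 292 moved by less than the spread of the arrays and 86 by more. The 292 include all diet ratios of 1 array alone. Leaving out 1 of 2 arrays always moves their mean by less than their SD, so these entries do not show stability. The liver ratio of Col4a1, at -0.05, became 0.38 or -0.47 and still counted among them. No paired analysis was possible because the design allows no test; each ratio already sets both diets of 1 array against each other. Background intensity limits dim probes, whose differences the offset of 50 understates.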

Other observations

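RefSeq names 4 further probes as collagens whose deposited names do not begin with Col. The probe 1110001D15Rik (Col6a4, a type VI chain) was well above background in all 4 channels of both organs, with mean levels of 9.00 in spleen and 6.56 in liver and diet ratios of 0.02 and -0.25 in spleen and 0.00 and 0.01 in liver. E330026B02Rik (Col6a6) was above background in 3 spleen channels and in no liver channel, with diet ratios of 0.00 and 0.04 in spleen. C530001D20Rik (named Col11a1 by RefSeq) was above background in 0 spleen channels and 1 liver channel, and Emid2 (Col26a1) in none. The set-aside Col4a3bp had diet ratios of 0.42 and -0.19 in spleen and 0.24 and -0.03 in liver and was not called.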
